A study of Solanum tuberosum with 9 samples.

Results

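Untreated storage of potato tubers (Solanum tuberosum, cultivar Keshan) was followed by RNA sequencing in 6 of the 9 libraries of the series. The control tubers at day 40 of storage (CK day 40, 3 libraries) were set against control tubers at day 0 (CK day 0, 3 libraries), chosen by their labels. The other 3 libraries came from day 40 tubers exposed to the vapour of rosemary essential oil, abbreviated REO (REO day 40). They entered the fit for its estimate of the spread, and their levels are given beside the others. All tubers were bought mature, and control and REO tubers were kept sealed at the same controlled temperature and humidity. No source states how many tubers a library holds or whether tubers were pooled, so every p-value reflects library-to-library spread, which may be technical.

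A potato tuber is a swollen underground stem made mostly of storage tissue, with a corky periderm outside and buds in its eyes. After harvest the buds are dormant. During storage dormancy is lost and the growing sprouts draw on the starch and protein laid down in the tuber, so transcripts of storage tissue and of buds can both change. Bulk tuber RNA can mix these tissues, and fewer cells of a type and less RNA per cell cannot be told apart. The deposited identifiers come without gene names, so neither the tissue nor a pathway could be checked by marker genes. Gene models are given here by identifier, chromosome and level, and "neighbouring" means close in identifier number. Levels are in CPM (counts scaled to a common library total, TMM-adjusted) unless FPKM (the authors' second table, which also divides by gene length) is named.

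Library totals were 31234314 to 36901701 counts at CK day 40, 29330673 to 35577854 counts at REO day 40 and 31311367 to 34589624 counts at CK day 0. CK day 40 replicate 2 stood apart. Its log2 CPM correlated at 0.916 and 0.898 with the other CK day 40 libraries across genes, which are not independent replicates, while those 2 correlated at 0.965 and the CK day 0 libraries at 0.956 to 0.964. It had 26805 gene models with at least 1 count, against 24937 and 23747 in CK day 40 replicates 1 and 3 and 23994 to 25078 at CK day 0. The number of models detected was 25163 ± 1542 at CK day 40 and 24454 ± 560 at CK day 0 (SD, n = 3 each; exact permutation test, two-sided, p = 0.7; 3 against 3 cannot give less than 0.1).

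Of the 34239 gene models, 22638 passed the filter on low counts and were tested, and 62 of them (0.274%) rose and 129 (0.57%) fell at CK day 40, together 0.844% (edgeR's quasi-likelihood test, adjusted p below 0.05 by Benjamini-Hochberg). With library size alone as the scaling, which shifted the median of all models to 0.15 on the log2 scale, the split was 63 and 65. Fallen models were most frequent among abundant ones: 1.38% of the 2101 models whose higher group averaged at least 100 CPM fell, against 0.238% that rose. At 1 to 10 CPM, 0.182% of 8263 models fell and 0.242% rose. Calls in either direction made up 0.0369% of models under 1 CPM and 1.62% of those at 100 CPM or more. Whether changes at higher counts are easier to call was not tested, and these shares were counted under TMM scaling only. The median change was 1.54 on the log2 scale for risen models and -1.40 for fallen ones, against 0.04 over all models tested. The largest difference in level among risen models was 119 CPM, and among fallen models it was 9778 CPM. Summed, the risen models stood at 1898 ± 14.2 CPM at CK day 40 and 827 ± 17.8 CPM at CK day 0, and the fallen models at 10668 ± 760 CPM at CK day 40 and 42783 ± 8793 CPM at CK day 0 (SD, n = 3 each). These sums describe models chosen by their calls.

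**Figure D1:**
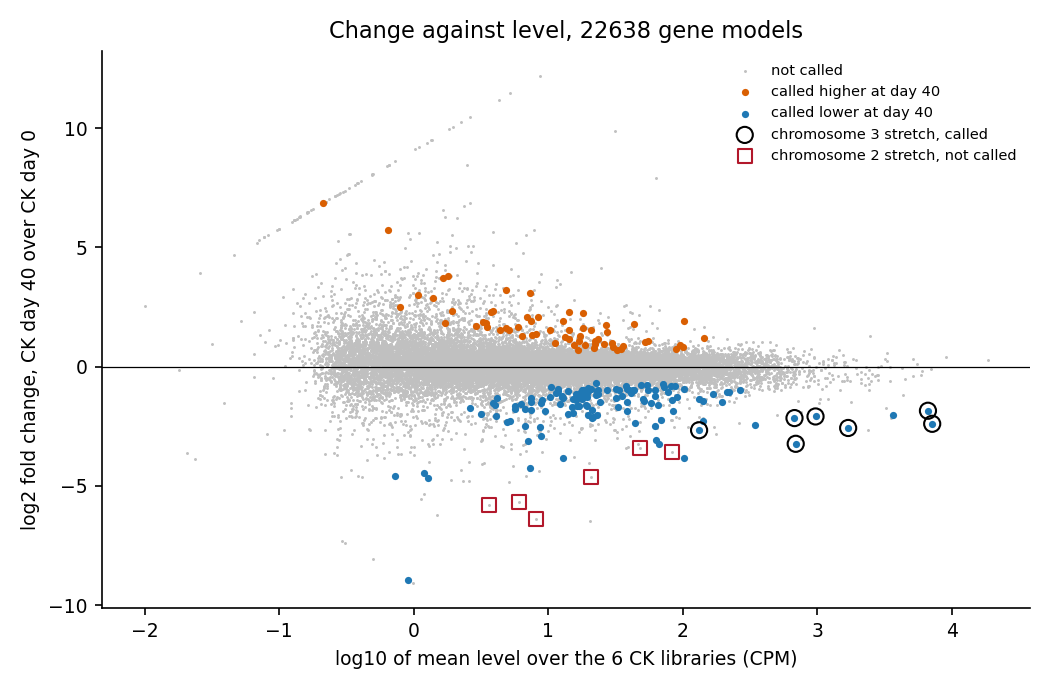
Log2 fold change of CK day 40 over CK day 0 (vertical) against the log10 mean level over the 6 CK libraries in CPM (horizontal) for 22638 gene models. The 62 called higher are orange and the 129 called lower are blue. Circles mark the 7 called models of a stretch on chromosome 3, which include the 2 fallen models with the largest difference in level, and squares mark 6 uncalled neighbours on chromosome 2.

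The call count rested on the libraries and on the test. An edgeR fit of only the 6 CK libraries called 0 models and had 2892 with p below 0.05 before adjustment, where the 9-library fit had 4162 (18.4%). DESeq2 called 748 higher and 916 lower (7.35%). The edgeR fit called 3, 44 and 0 models without CK day 0 replicate 1, 2 or 3. It called 8, 985 and 24 without CK day 40 replicate 1, 2 or 3. Without CK day 40 replicates 1 and 3, left out in turn, risen models outnumbered fallen ones, with 6 and 2 in the one fit and 14 and 10 in the other. Dropping a single REO day 40 library gave 54, 0 and 54. The 6 CK libraries without CK day 40 replicate 2, tried after the data were seen, gave 34 higher and 107 lower. Of these 141 calls, only 43 were among the 191 of the 9-library fit. All 191 models were also called by DESeq2 and by edgeR without CK day 40 replicate 2, which called 1664 and 985 models in all. Of the 191, edgeR also called 2, 42 and 0 without CK day 0 replicate 1, 2 or 3. It called 6 and 18 of them without CK day 40 replicate 1 or 3. Without REO day 40 replicate 1, 2 or 3 it called 51, 0 and 50 of them. The 9-library edgeR fit, DESeq2, limma-voom and limma on log2(FPKM + 1) alike called 139 of the 191, 45 higher and 94 lower. All settings reuse the same libraries. The 139 include 5 of the 7 called models of the chromosome 3 stretch.

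**Figure D2:**
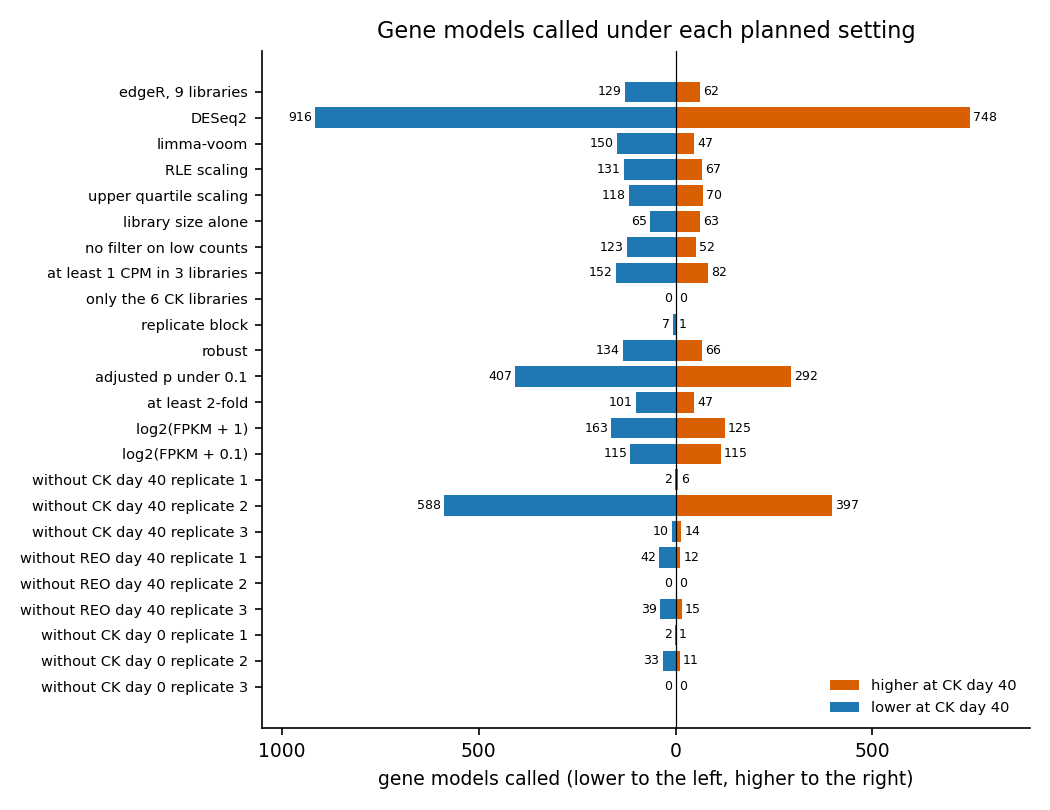
Gene models called at CK day 40 against CK day 0 under each planned setting, higher to the right and lower to the left of 0. The 9-library edgeR fit gives 62 and 129, only the 6 CK libraries give 0 and 0, and DESeq2 gives 748 and 916. DESeq2 without CK day 40 replicate 2, tried after the data were seen and not drawn, gave 1472 and 2095.

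The most abundant transcript of the day 0 tuber was among the fallen. Soltu.DM.03G018650 on chromosome 3 had 2068, 2346 and 2470 CPM in the CK day 40 libraries, against 10758, 10321 and 15139 CPM in the CK day 0 libraries. All 3 CK day 40 libraries thus lay far below all 3 CK day 0 libraries, and they were close to each other. The means were 2294 ± 206 CPM at CK day 40 and 12073 ± 2664 CPM at CK day 0 (SD, n = 3 each), 5.26-fold lower. The log2 fold change was -2.40 ± 0.36 (SE; edgeR adjusted p = 0.0295). On the FPKM scale, which allows genes to be compared, it averaged 4911 FPKM at CK day 40, where it ranked 3 of all models, and 23216 FPKM at CK day 0, where it ranked 1.

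Soltu.DM.03G018580, a neighbour of that model, ranked 10 by FPKM at CK day 40 and 2 at CK day 0. Its libraries stood at 2877, 3074 and 2761 CPM at CK day 40, against 10664, 8582 and 12121 CPM at CK day 0. Here too the groups were far apart, and the spread within CK day 40 was small. The means were 2904 ± 158 CPM at CK day 40 and 10455 ± 1779 CPM at CK day 0 (SD, n = 3 each), with a log2 fold change of -1.85 ± 0.25 (SE; edgeR adjusted p = 0.0247). Each of the 2 fallen models was below 0 in 25 of 25 alternatives, which says little for models picked by their calls. The calls were lost in 10 and 9 of the 25, with adjusted p up to 0.102 and 0.0947. With limma on log2(FPKM + 1) the adjusted p was 0.074 and 0.0707, so neither model is among the 139 counted above. Without CK day 40 replicate 2 the log2 fold changes of the 2 fallen models were -2.43 and -1.91.

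Both models belong to a stretch of neighbours on chromosome 3 that fell together. The fallen models were searched for neighbours at most 10 identifier steps apart, a rule chosen after their values were seen. It placed 27 of the 129 fallen models in 11 stretches, of which 10 were pairs and 1 held 7 models, and 6 of the 62 risen models in 3 pairs. How often tested models of either kind lie this close was not counted, and a larger set has more room for pairs. These numbers therefore do not show that falls cluster more than rises. The stretch of 7 runs over 12 gene models with chromosome 3 identifiers. Of these, 10 were tested, 7 fell and 0 rose, where 0.57% of all tested models fell. Since the stretch was picked by its calls, that share is a description.

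The 7 fallen members covered a wide range of levels. In the order of their identifiers, their means at CK day 40 and CK day 0 were 36.2 and 229 CPM for the member at position 1, 491 and 2917 CPM at position 4, and 133 and 1255 CPM at position 8. Those at positions 9 and 12 had 249 and 1111 CPM, and 371 and 1578 CPM, and positions 5 and 11 are the 2 models named above. The fall was 3.60-fold to 9.41-fold, so the smallest belonged to the named model at position 5 and the largest to the member at position 8. That member had 79.6, 134 and 187 CPM at CK day 40, against 1018, 860 and 1888 CPM at CK day 0.

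The other 3 tested models of the stretch, at positions 2, 3 and 7, were much lower, at 0.642, 1.63 and 1.75 CPM at CK day 40 and 0.856, 1.97 and 11.5 CPM at CK day 0, and none (0) was called (edgeR adjusted p 0.148 to 0.778). Together the 7 fallen members took 0.676 ± 0.0791% of all counts at CK day 40 and 2.81 ± 0.376% at CK day 0 (SD, n = 3 each). In the single libraries the share was 0.593, 0.750 and 0.687% at CK day 40, against 2.83, 2.43 and 3.18% at CK day 0. The CK groups did not overlap, which the choice of the members by their calls made likely. The 7 models made up 6480 of the 10668 CPM summed over all fallen models at CK day 40 and 29618 of the 42783 CPM at CK day 0. At REO day 40 their share was 0.512, 0.746 and 1.05%, also below every CK day 0 library, the same libraries that the choice of the members used.

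**Figure D3:**
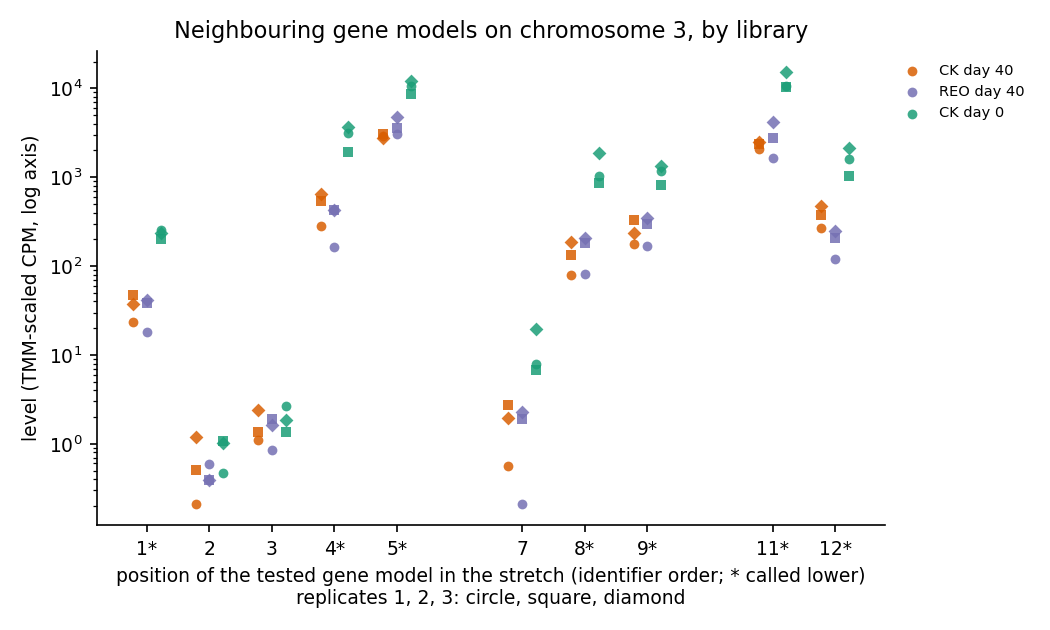
Level in CPM on a log axis of the 10 tested gene models of the chromosome 3 stretch, by position in identifier order, with 1 point for each of the 9 libraries (CK day 40 orange, REO day 40 purple, CK day 0 green). In the 7 called models, marked by an asterisk, every CK day 40 and REO day 40 point lies below every CK day 0 point. The 7 were picked by their calls. The CK libraries do not overlap in any of the 129 fallen models, against 10.4% of all tested models on the lower side. Every REO day 40 library lies below every CK day 0 library in 123 of the 129, and in 3255 of all 22638 tested models.

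In all 25 alternatives the 7 members stayed below 0, and between 0 and 7 of them passed the test. The constant sign says little, because the members were picked by their calls and the alternatives reuse the same libraries. All 7 passed in 11 alternatives, DESeq2 and limma-voom among them, and 0 passed with only the 6 CK libraries or without CK day 0 replicate 1, CK day 0 replicate 3, CK day 40 replicate 1, CK day 40 replicate 3 or REO day 40 replicate 2. Without CK day 0 replicate 2 the number was 2, without REO day 40 replicate 3 it was 3, and with only the CK libraries less CK day 40 replicate 2 it was 4. With replicate number as a block it was 1, and without REO day 40 replicate 1 it was 6. With library size alone, and with limma on log2(FPKM + 1) or log2(FPKM + 0.1), it was 5. Neighbouring models can be near-identical copies, and no source says how reads shared by copies were assigned or whether strand was used, so the level of a single member is less certain than the sum. The ratio of count to FPKM gives each model a length scale, whose median was 979 bases for the 7, against 1483 bases for all fallen, 2120 bases for risen and 1681 bases for all tested models.

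A second group of neighbours on chromosome 3 was abundant and lower in storage without passing the test. It emerged among the 20 models with the highest mean FPKM over all 9 libraries. Of those 20, 15 had a log2 fold change below 0, and in 9 every CK day 40 library lay below every CK day 0 library, while 0 lay above. The 9 are the 5 neighbours of this second group, 2 members of the first stretch, Soltu.DM.04G027270 and Soltu.DM.07G016220. Since neighbours may share reads, they are not 9 separate cases. Over all tested models the libraries did not overlap in 19.9%, with 10.4% on the lower side and 9.49% on the higher side. The group means of the 5 neighbours among the 20 were 1763 to 2909 FPKM at CK day 40, 618 to 3029 FPKM at REO day 40 and 3757 to 7211 FPKM at CK day 0. Their log2 fold changes were -2.17 to -0.60 and none (0) was called (edgeR adjusted p 0.103 to 0.414). Soltu.DM.03G023580 and Soltu.DM.03G023620, with the largest falls, spread widely at CK day 40. They had 1066, 452 and 2377 CPM and 1334, 466 and 2688 CPM there, replicate 2 being the lowest. In the other neighbours among the 20, replicate 2 was the highest of the CK day 40 libraries.

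The share of counts held by the 100 most abundant models of each library was 22.7, 23.2 and 23.6% at CK day 40, against 23.9 to 29.9% at CK day 0. The difference of the means, CK day 40 minus CK day 0, was -3.16 percentage points (exact permutation test, two-sided, p = 0.1, the smallest that 3 against 3 can give). Without CK day 0 replicate 3, which had the highest share, the difference was -1.34 percentage points. For the 10 most abundant models it was -0.478 (p = 0.8) and for the 1000 most abundant -2.88 (p = 0.4; both exact permutation tests, two-sided).

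Large falls that the test did not call were found by a rule without a model. It asked that the lowest library of the higher group reach at least 4 times the highest library of the lower group, with a mean of at least 5 CPM in the higher group. Values under 0.11 CPM, the highest floor of 3 counts among the libraries, were set to that floor, and the rule was chosen after the data were seen. Of 14620 models with 5 CPM in either group, 22 fell by this measure (0.15%) and 2 rose (0.0137%). Of the 22, 8 were called by edgeR and 14 were not, with adjusted p up to 0.213. The 2 that rose were both called. They lie on chromosomes 6 and 9, at 7.61, 12.5 and 19.6 CPM and at 4.57, 8.59 and 13.1 CPM at CK day 40, against 1.30 to 1.69 CPM and 0.623 to 1.13 CPM at CK day 0. The imbalance depended on CK day 40 replicate 3, without which 31 fell and 25 rose. Without CK day 40 replicate 1 or 2, 47 or 60 fell and 6 rose each time, and without CK day 0 replicate 1, 2 or 3, 54, 26 or 23 fell and 2, 5 or 3 rose.

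The 22 included 6 consecutive models on chromosome 2, all low at CK day 40. The model at position 1 of these had 16.4, 21.1 and 0.794 CPM at CK day 40, against 122, 164 and 178 CPM at CK day 0. The model at position 6 had 12.7, 11.7 and 0.444 CPM at CK day 40, against 75.6, 97.6 and 91.9 CPM at CK day 0. In both, CK day 40 replicate 3 was far below the other CK day 40 libraries. The member at position 2, with 0.476, 0.0762 and 0 CPM at CK day 40 and 11.5, 21.4 and 15.6 CPM at CK day 0, had the largest log2 fold change, -6.39 ± 1.67 (SE; edgeR adjusted p = 0.109).

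Their summed level was 32.7, 35.5 and 1.33 CPM at CK day 40, 5.88, 2.25 and 84.1 CPM at REO day 40 and 254, 354 and 347 CPM at CK day 0. That every CK day 40 library lay below every CK day 0 library follows from the rule that picked the models. The REO day 40 libraries lay below them too. The rule did not use these, but it picked models high in the same CK day 0 libraries, which favours that outcome. Over all 22638 tested models, 3255 had every REO day 40 library below every CK day 0 library. Within each day 40 group the libraries spread widely, CK day 40 replicate 3 being the lowest of its group and REO day 40 replicate 3 the highest of its own. The log2 fold changes of the 6 were -6.39 to -3.41, and none (0) passed the edgeR test (adjusted p 0.0684 to 0.213).

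**Figure D4:**
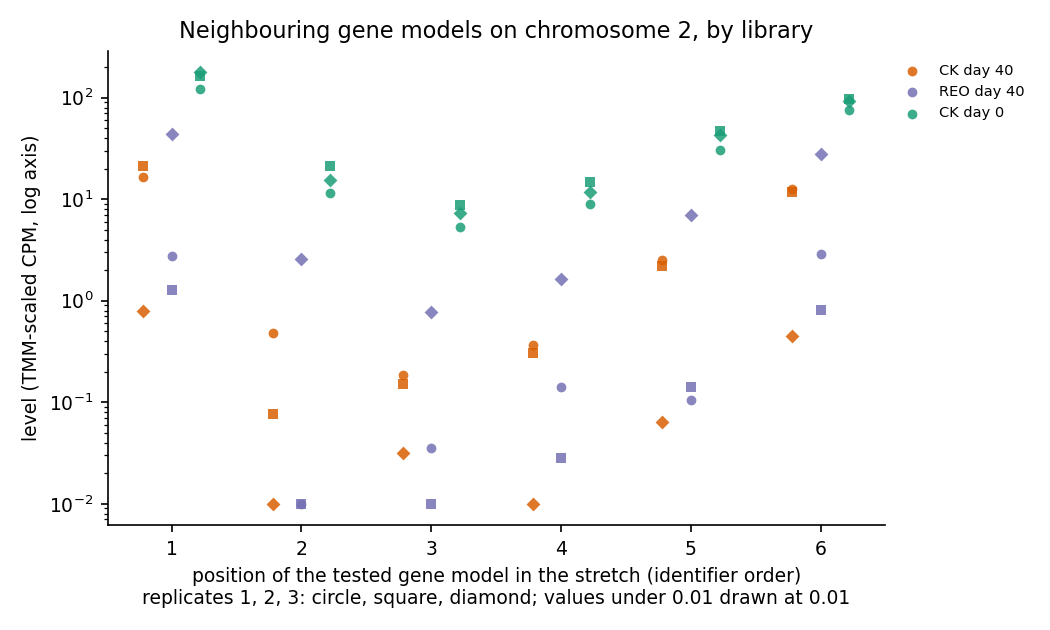
Level in CPM on a log axis of the 6 consecutive gene models on chromosome 2, by position in identifier order, with 1 point for each of the 9 libraries (CK day 40 orange, REO day 40 purple, CK day 0 green). All CK day 0 points lie above all day 40 points of the same model, which for CK day 40 follows from the rule that picked the models. For REO day 40 it is favoured, since the rule picked models high in the same CK day 0 libraries. CK day 40 replicate 3, drawn as a diamond, is the lowest CK day 40 point in each.

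Among the called models, the largest rises were smaller in level than the largest falls. The risen model with the largest difference was Soltu.DM.12G022690 on chromosome 12. It had 95.3, 208 and 184 CPM at CK day 40, against 47.4, 48.3 and 34.1 CPM at CK day 0. Every CK day 40 library lay above every CK day 0 library, with replicate 1 nearest to them. The means were 162 ± 59.3 CPM at CK day 40 and 43.3 ± 7.95 CPM at CK day 0 (SD, n = 3 each), with a log2 fold change of 1.91 ± 0.28 (SE; edgeR adjusted p = 0.029). It also heads 1 of the 3 pairs of risen neighbours. The other member of its pair, 3 identifier steps on, had 28.9, 49.0 and 42.4 CPM at CK day 40, against 16.0, 17.8 and 10.4 CPM at CK day 0 (log2 fold change 1.44 ± 0.24, SE; edgeR adjusted p = 0.0389). In both members replicate 1 was the lowest of the CK day 40 libraries.

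Soltu.DM.01G003710 on chromosome 1 had 251, 140 and 213 CPM at CK day 40, against 96.0, 84.6 and 83.4 CPM at CK day 0. The CK day 0 libraries were close together, and CK day 40 replicate 2 was the lowest of its group and still above them. The means were 201 ± 56.4 CPM at CK day 40 and 88.0 ± 6.99 CPM at CK day 0 (SD, n = 3 each), with a log2 fold change of 1.20 ± 0.21 (SE; edgeR adjusted p = 0.0458). The calls of the 2 risen models were lost in 10 and 11 of 25 alternatives, with adjusted p up to 0.111 and 0.152. Neither changed sign, which says little for models picked by their calls. Without CK day 40 replicate 2 the log2 fold changes were 1.67 for the chromosome 12 model and 1.38 for the chromosome 1 model.

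**Figure D5:**
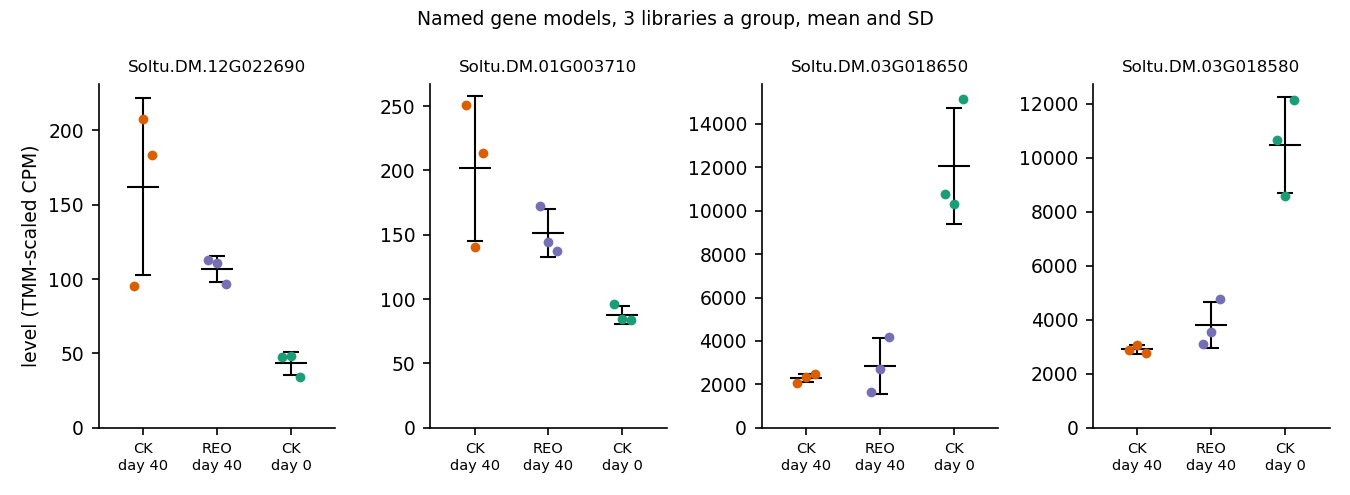
Level in CPM of the 2 risen and 2 fallen gene models with the largest difference in level, in the 3 libraries of each group (points), with the group mean and SD (bars). The CK day 40 points lie above the CK day 0 points in the 2 models on the left and below them in the 2 on the right, and the REO day 40 points lie on the same side of CK day 0. The models were picked by their calls, and both comparisons share the CK day 0 libraries.

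Among all 62 risen models, 15 changed less than 2-fold, 31 between 2-fold and 4-fold, 10 between 4-fold and 8-fold and 6 at least 8-fold. Of the 129 fallen models the same classes held 28, 69, 21 and 11. The 6 risen models of the top class were low, 5 of them under 10 CPM in the higher group, whereas 7 of the 11 fallen ones reached 10 CPM and 4 reached 100 CPM at CK day 0. Models without a single count in 1 group were rare: 41 had 0 counts in all CK day 0 libraries and at least 3 counts in each CK day 40 library, and 23 the converse. Only 16 and 5 of these reached the test. The floor of 3 counts corresponds to 0.0762 to 0.11 CPM in the CK libraries and covers counting error only.

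Called models lay on all 12 chromosomes. Over all tested models 0.274% rose and 0.57% fell, together 0.844%. The share called was lowest on chromosome 4, with 5 risen and 6 fallen of 1998 tested (0.551%), and highest on chromosome 2, with 9 risen and 15 fallen of 2094 (1.15%). Chromosome 3 had the most fallen models, 19 of 2209 (0.86%), of which 7 were the members of the stretch. On chromosome 11, 1 of 1513 models rose (0.0661%) and 12 fell (0.793%). Chromosomes 10 and 4 had the fewest fallen models, 6 each (0.422% and 0.3%). On chromosome 10, 9 of 1423 models rose (0.632%). No test was made between chromosomes. Of the 1217 tested models with an identifier added by the submitters, 2 rose and 2 fell.

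The levels of the named models after storage under REO are set beside these, and both storage comparisons share the CK day 0 libraries. Soltu.DM.03G018650 averaged 2294 ± 206 CPM at CK day 40, 2848 ± 1274 CPM at REO day 40 and 12073 ± 2664 CPM at CK day 0. Soltu.DM.03G018580 averaged 2904 ± 158, 3806 ± 860 and 10455 ± 1779 CPM in the same order. Soltu.DM.12G022690 averaged 162 ± 59.3, 107 ± 8.63 and 43.3 ± 7.95 CPM, and Soltu.DM.01G003710 averaged 201 ± 56.4, 151 ± 18.5 and 88.0 ± 6.99 CPM (SD, n = 3 each). For none of these 4 did REO day 40 differ from CK day 40 past the threshold (edgeR adjusted p 0.652 to 0.972), which does not show that the levels were alike.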

How the data were processed

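The authors deposited raw counts per gene model and library for 34239 models in 9 libraries. Their second deposited table, which names no unit, was taken as FPKM: for 89% of 10904 well-covered models the counts divided by its values followed gene length and library depth to within 2%. The tools named, per the submitters' processing notes, were HISAT2 2.1.0 (a read aligner) and DESeq2. The counting tool, build and annotation were not given in the sources used here. A count of 1 was rarer than a count of 2 (1998 and 4901 times), and whether mates were counted singly is unknown.

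No identifier (0) matched the reference gene table provided (SolTub_3.0), so gene lists and cell type markers could not be used and no sequence is shown. The members, rules and lists were chosen with earlier results of these data known. Named models are the 2 risen and 2 fallen with the largest difference of group means, among called models whose groups did not overlap.

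Models were filtered with filterByExpr and fitted in edgeR 4.0.16 (R 4.3.3) over all 9 libraries with TMM scaling and 1 coefficient per group. Tests were two-sided, with p-values adjusted by Benjamini-Hochberg at 0.05 over the 22638 models tested. Standard errors were derived from the F statistic. The common biological coefficient of variation was 0.362. The fit was tested on counts simulated from its dispersions, without a library that stood apart. It recovered 14 of 67 models changed 2-fold, 54 of 67 changed 4-fold and 58 of 66 changed 8-fold. Of its 135 calls there, 9 were false. Replicate pairs differed beyond counting noise (chi-square per degree of freedom at least 35.6), so no pair was merged as a library deposited more than once, which does not show that the tubers were separate. Alternatives were DESeq2 1.42.0, limma 3.58.1 (voom, and log2(FPKM + pseudocount), which understates the change of low genes), other scalings, filters, thresholds and libraries.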

Additional observations from a re-analysis of the deposited data

How the results depend on the processing

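The count of 191 changed models became 1664 with DESeq2, 699 at an adjusted p under 0.1 and 288 with limma on log2(FPKM + 1). It was 0 with only the 6 CK libraries, and 0 to 985 when 1 of the 9 libraries was left out, the highest without CK day 40 replicate 2. The fits without CK day 0 replicate 3 and without REO day 40 replicate 2, which called 0, had 3325 and 3585 models at an unadjusted edgeR p under 0.05. DESeq2 without CK day 40 replicate 2, added after the data were seen, gave 3567. The cause of these shifts was not tested. The split of 62 higher and 129 lower became 63 and 65 with library size alone, 125 and 163 on log2(FPKM + 1), 115 and 115 on log2(FPKM + 0.1), and 748 and 916 with DESeq2. It turned to 6 and 2 without CK day 40 replicate 1 and to 14 and 10 without CK day 40 replicate 3. The replicate block gave 8 calls, 1 higher and 7 lower. Same-numbered CK libraries had correlations of their deviations of 0.163, 0.251 and -0.0725, and differently numbered ones -0.413 to 0.393. With 3 libraries a group these values cannot show whether same-numbered samples were paired, and the labels state no pairing. Non-overlapping models numbered 4502, and 5799 to 10176 with 1 CK library left out, where fewer libraries are easier to separate. With library size alone 3233 of them were higher and 1539 lower, against 2148 and 2354. The share of the 100 most abundant models differed by -4.35 to -1.34 percentage points with 1 library left out, against -0.478 for the 10 and -2.88 for the 1000 most abundant, and the number of models detected by -112 to 1417, the only reversal being without CK day 40 replicate 2. The 4 named models kept their sign in 25 of 25 alternatives, which says little for models picked by their calls. At these depths a count of 0 allows up to 0.0762 to 0.11 CPM, depending on the library.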
